A study of Mus musculus with 8 samples.

Results

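The genes described here are Ifitm1, Ifitm2 and Ifitm3, 3 clustered paralogs that encode interferon-induced transmembrane proteins. They were taken by gene symbol from deposited gene tables of 23746 rows, and all 3 were among the 9782 genes that reached 1 FPKM in at least 2 of 8 libraries. FPKM is the number of fragments scaled by transcript length and by the size of the library. The genes were chosen by their FPKM, which was higher in the Cd69-/- than in the wild type libraries, so every genotype difference of Ifitm1, Ifitm2 and Ifitm3 below is a description without a test.

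The libraries were made from CD8+ T cells of BALB/c mice that bound the AH1 tetramer, which marks T cells that recognise a tumour antigen of viral origin. The groups were Cd69-/- term diff, wild type term diff, Cd69-/- stem-like and wild type stem-like, each with 2 libraries. Stem-like and term diff are the names the labels give to the sorted subsets. The tumour, the gates of the sort, the age of the mice, the nature of the Cd69 allele, and whether libraries came from separate mice are not given in the sources used here, so a p-value below measures the spread between these libraries, which may be technical.

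IFITM proteins are small membrane proteins that sit in the plasma membrane and in endosomes and hinder the fusion of enveloped viruses with the cell. In most cells their genes are switched on by type I and type II interferon through transcription factors that bind interferon-stimulated response elements (ISRE) and gamma-activated sites (GAS) near the gene start. In T cells they are known both from antiviral defence of memory CD8+ T cells that stay in tissue and as regulators of CD4+ T cell differentiation in mice.

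In the coordinates of the files (mouse build mm10) the 3 genes lie within 55.9 kb of chromosome 7. Ifitm2 is at chr7:140954839-140955961 on the minus strand, Ifitm1 at chr7:140967429-140969827 on the plus strand, and Ifitm3 at chr7:141009590-141010744 on the minus strand. Cd69 itself is on chromosome 6. The sequences around the gene starts are shown because the ISRE and GAS letters were searched there. Each runs 5′ to 3′ on the strand of its gene, from 250 bases before to 30 bases after the start that RefSeq gives on GRCm38.p6, and capitals mark matches to the ISRE core, which is GAAA, any 2 bases and GAAA again. The windows are chr7:140967826-140968105 for Ifitm1, chr7:140955932-140956211 for Ifitm2 and chr7:141010715-141010994 for Ifitm3.
Ifitm1: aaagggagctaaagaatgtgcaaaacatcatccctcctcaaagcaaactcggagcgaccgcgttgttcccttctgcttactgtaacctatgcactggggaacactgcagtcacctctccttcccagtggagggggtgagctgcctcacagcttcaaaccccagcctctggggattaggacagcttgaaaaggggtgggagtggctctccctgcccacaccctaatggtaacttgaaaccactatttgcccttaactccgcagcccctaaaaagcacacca
Ifitm2: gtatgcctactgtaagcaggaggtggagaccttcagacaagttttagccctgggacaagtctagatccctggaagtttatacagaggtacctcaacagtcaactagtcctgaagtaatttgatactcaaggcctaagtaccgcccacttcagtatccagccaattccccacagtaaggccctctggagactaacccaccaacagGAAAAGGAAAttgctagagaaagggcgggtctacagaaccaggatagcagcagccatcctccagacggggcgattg
Ifitm3: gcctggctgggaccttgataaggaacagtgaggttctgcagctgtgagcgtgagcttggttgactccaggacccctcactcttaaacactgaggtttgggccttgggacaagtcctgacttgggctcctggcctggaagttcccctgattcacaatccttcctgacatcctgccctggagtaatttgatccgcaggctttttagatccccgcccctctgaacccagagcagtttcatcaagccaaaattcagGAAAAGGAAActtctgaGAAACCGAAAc

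The ISRE core, searched on both strands, began at position -46 of Ifitm2 and at positions 3 and 20 of Ifitm3, counting the first transcribed base as 1. It was not among the letters of the Ifitm1 window, and the locus of Ifitm1 in the files starts upstream of the start that this window is built on. The GAS letters TTCNNNGAA occurred at position 14 of Ifitm3, overlapping the ISRE match at position 20, and in neither other window. Among all 32851 promoter windows of 300 bases, 3.44% held the ISRE core, against 46.2% of the 65 windows of other interferon-stimulated genes. The GAS letters were in 8.3% of all windows and in 18.5% of those 65.

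Before the IFITM genes, Cd69 served as a check of the genotype labels. Its FPKM was 2.21 and 2.43 in Cd69-/- term diff libraries, against 10.4 and 12.9 in wild type term diff libraries. In Cd69-/- stem-like libraries it was 3.69 and 2.42, against 22.5 and 23.4 in wild type stem-like libraries. The genotype groups did not overlap. All 8 markers of the sorted subsets differed between the subsets in each genotype (limma adjusted p under 0.05), against 9.45% of all genes in Cd69-/- and 13.1% in wild type. Tcf7, a transcription factor of stem-like T cells, averaged 0.302 FPKM in Cd69-/- term diff and 50.6 FPKM in Cd69-/- stem-like libraries. Some of these calls in Cd69-/-, such as that of Cd244, ended when every library was rescaled to an equal FPKM sum. Implied fragments, the number of fragments that the width of the deposited confidence interval corresponds to, summed to between 2055411 and 2591061 per library. The FPKM of a library summed to between 567545 and 919280 in the Cd69-/- groups and between 282589 and 674071 in the wild type groups, with the lowest sums in the wild type libraries numbered 2. Rows of small RNA held 77.1% to 83.9% of that sum in Cd69-/- and 54.9% to 80.1% in wild type libraries.

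Ifitm1, the member of the family found mainly at the cell surface, was close to undetected in wild type cells and clearly present in 3 of the 4 Cd69-/- libraries. Its FPKM was 4.66 and 9.45 in Cd69-/- term diff libraries, against 0.235 and 0.116 in wild type term diff libraries. In Cd69-/- stem-like libraries it was 0.933 and 3.37, against 0.245 in one wild type stem-like library and a listed value of 0 in the other. Each Cd69-/- library was above each wild type library, yet the deposited 95% interval of the lowest Cd69-/- library (0 to 2.08) spanned every wild type value. Over both subsets the mean was 4.61 ± 3.58 FPKM in Cd69-/- and 0.149 ± 0.115 FPKM in wild type (SD, n = 4 each). These values rested on about 64.4 implied fragments in the 4 Cd69-/- libraries and 1.1 in the 4 wild type libraries, so the wild type level is at the limit of what this depth can show. Only Cd69-/- libraries took Ifitm1 past the filter of 1 FPKM.

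Ifitm2, a member known mostly from endosomal membranes, was measured in all 8 libraries. Its FPKM was 4.24 and 8.74 in Cd69-/- term diff libraries, against 1.05 and 0.259 in wild type term diff libraries. In Cd69-/- stem-like libraries it was 4.94 and 3.49, against 2.19 and 3.15 in wild type stem-like libraries. The term diff groups lay far apart, while in stem-like cells the lower Cd69-/- library was only just above the higher wild type library. The group means were 6.49 ± 3.18 FPKM in Cd69-/- term diff and 0.653 ± 0.557 FPKM in wild type term diff, a ratio of 9.94. In the stem-like subset they were 4.22 ± 1.03 FPKM in Cd69-/- and 2.67 ± 0.682 FPKM in wild type, a ratio of 1.58 (SD, n = 2 each). Implied fragments came to 74 over the Cd69-/- libraries and 22.6 over the wild type libraries.

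Ifitm3, the member best known for blocking influenza virus in late endosomes, had the highest level of the 3 in both Cd69-/- groups and in wild type term diff. Its FPKM was 7.17 and 10.3 in Cd69-/- term diff libraries, against 1.25 and 2.35 in wild type term diff libraries. In Cd69-/- stem-like libraries it was 5.23 and 4.25, against 2.61 and 1.8 in wild type stem-like libraries. The genotypes did not overlap in either subset. The mean in term diff cells was 8.75 ± 2.24 FPKM in Cd69-/- and 1.8 ± 0.778 FPKM in wild type, a ratio of 4.87. In stem-like cells it was 4.74 ± 0.694 FPKM in Cd69-/- and 2.2 ± 0.568 FPKM in wild type, a ratio of 2.15 (SD, n = 2 each). About 97.7 implied fragments stood behind the Cd69-/- values and 29.6 behind those of wild type.

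**Figure D1:**
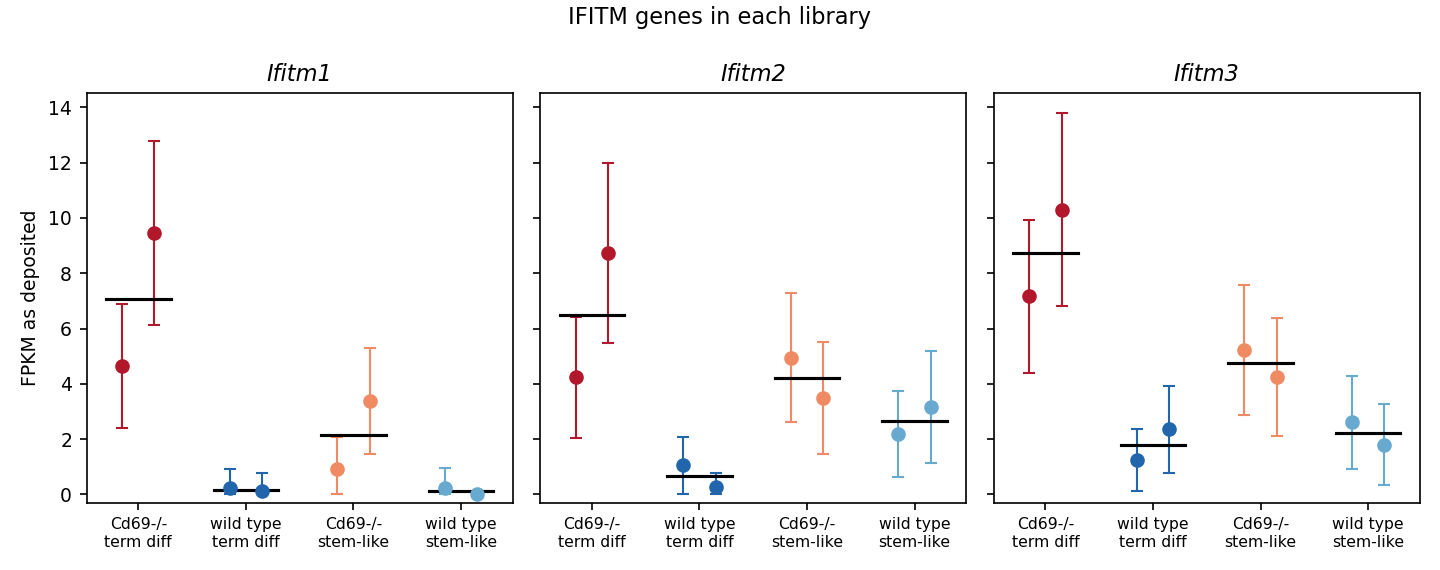
FPKM as deposited (linear axis) of Ifitm1, Ifitm2 and Ifitm3 in each of the 8 libraries, by group; bars on points are the deposited 95% confidence intervals, which cover counting error only, and black lines are group means. The Cd69-/- term diff libraries sit highest for all 3 genes except for 1 Ifitm2 value, and wild type Ifitm1 lies at or near 0.

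Even where they were highest, the IFITM genes were moderately expressed. In Cd69-/- term diff libraries Ifitm3 stood above 63.4% and 75.6% of the genes kept, and in wild type term diff libraries above 13.1% and 27.1%. The 3 genes together had 16.1 and 28.5 FPKM in Cd69-/- term diff libraries, against 2.53 and 2.72 FPKM in wild type term diff libraries. In Cd69-/- stem-like libraries the sum was 11.1 FPKM in both, against 5.04 and 4.96 FPKM in wild type stem-like libraries. Their make-up differed as well. Ifitm1 gave 29% and 33.1% of the summed FPKM in Cd69-/- term diff, against 9.3% and 4.3% in wild type term diff, where Ifitm3 gave 49.3% and 86.2%. In stem-like libraries the share of Ifitm1 was 8.4% and 30.4% in Cd69-/-, against 4.9% and 0% in wild type.

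On the log2(FPKM + 1) scale, which understates changes of low genes, the Cd69-/- minus wild type difference in term diff cells was 2.71 ± 0.4 for Ifitm1, whose value depends on the pseudocount because wild type was near 0, 2.15 ± 0.33 for Ifitm2 and 1.81 ± 0.24 for Ifitm3 (± standard error). In stem-like cells it was 1.38 ± 0.4, 0.51 ± 0.33 and 0.85 ± 0.24 for the same genes in that order. The median over all genes was -0.05 in term diff and 0.06 in stem-like. Ordered from the largest rise among 9782 genes, the 3 genes stood at places 36, 44 and 55 in term diff and at places 43, 262 and 90 in stem-like cells. In all 3 genes each of the 4 Cd69-/- libraries exceeded each of the 4 wild type libraries. That held for 171 of the genes kept (1.75%). Within a subset, both Cd69-/- libraries were above both wild type libraries in 19.7% of the genes kept in term diff and in 26.3% in stem-like cells. For the IFITM genes nothing is read from these counts, since the same contrast chose the genes. Without the 2 wild type libraries of lowest FPKM sum the differences were 2.64, 1.8 and 2.1 in term diff and 1.22, 0.7 and 0.67 in stem-like cells. Bulk RNA cannot tell a change in every cell from a change in the share of cells that carry the transcript.

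**Figure D2:**
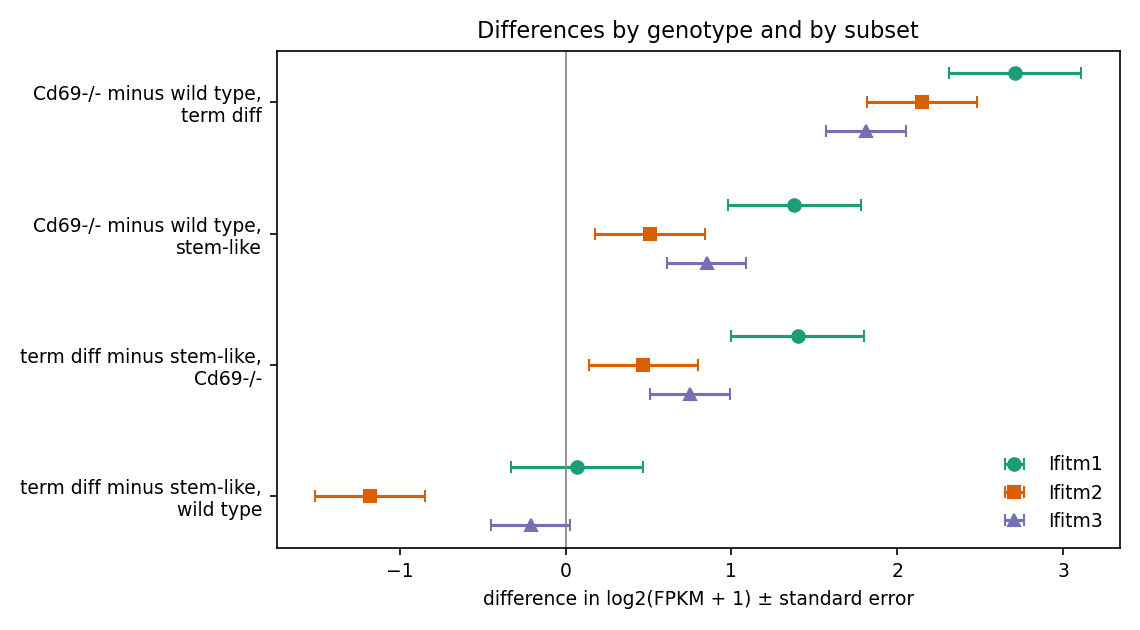
Differences of Ifitm1, Ifitm2 and Ifitm3 on the log2(FPKM + 1) scale ± standard error for both genotype comparisons and both subset comparisons. The genotype differences lie to the right of 0 in both subsets, from 0.51 to 2.71, while the subset difference of Ifitm2 is 0.47 in Cd69-/- and -1.18 in wild type cells.

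The subset comparison was not used to choose the genes and was tested with limma for Ifitm2 and Ifitm3, with p-values adjusted over all 9782 genes by the Benjamini-Hochberg method. In Cd69-/- cells the term diff minus stem-like difference was 0.75 ± 0.24 for Ifitm3 (95% interval 0.2 to 1.3, limma adjusted p = 0.096) and 0.47 ± 0.33 for Ifitm2 (-0.3 to 1.23, limma adjusted p = 0.428). Neither passed at 0.05, a threshold that 9.45% of all genes passed, and Ifitm3 had an unadjusted p under 0.05, as 24.7% of all genes did. Both intervals leave room for a rise of more than 1 on the log2 scale. The value of Ifitm2 rested on single libraries, being 0.021 without Cd69-/- term diff library 2, 0.266 without Cd69-/- stem-like library 2 and 0.915 without Cd69-/- term diff library 1. Ifitm1 had passed the filter through Cd69-/- libraries alone, so its difference in Cd69-/- cells, 1.4 ± 0.4, is given without a test. It was 0.814 without Cd69-/- stem-like library 1.

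In wild type cells the level of Ifitm2 was lower by value in term diff than in stem-like. The difference was -1.18 ± 0.33 (95% interval -1.94 to -0.42, limma adjusted p = 0.0533), just short of the threshold that 13.1% of all genes passed. It passed without Cd69-/- term diff library 1 (limma adjusted p = 0.0343) or 2 (limma adjusted p = 0.0345), neither of which enters the difference itself. For Ifitm3 the difference was -0.21 ± 0.24 (-0.77 to 0.34, limma adjusted p = 0.618), and without wild type term diff library 1 it was 0.07. Ifitm1 was at the limit of detection in both wild type groups, so no difference is read from its fitted value of 0.07 ± 0.4.

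The genotype difference was larger in term diff than in stem-like cells by value in all 3 genes. The difference between the 2 was 1.33 ± 0.56 for Ifitm1, 1.65 ± 0.47 for Ifitm2 and 0.96 ± 0.34 for Ifitm3. It is built from the genotype differences that chose the genes, so no test of it is given. Over all genes, 0.0307% passed in this interaction. Without Cd69-/- stem-like library 1 or Cd69-/- term diff library 2 the Ifitm1 value was 0.741 and 0.887, and with every library rescaled to an equal FPKM sum the Ifitm3 value was 0.461.

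The levels of the 3 genes were compared with each other over the 8 libraries. All 3 were chosen for a higher level in Cd69-/-, which by itself raises the correlation between them, and the libraries also share groups and depth. Pearson's r on the log2(FPKM + 1) scale was 0.91 between Ifitm1 and Ifitm3, 0.8 between Ifitm2 and Ifitm3 and 0.74 between Ifitm1 and Ifitm2. Reads could in part pass between paralogs, so their transcripts were compared in windows of the read length, 76 bases. No window was identical between any pair of the 3. Allowing 2 mismatches, 23 windows were shared between Ifitm1 and Ifitm3, which is 2.85% of the windows of Ifitm1 and 3.81% of those of Ifitm3. No window of Ifitm2 came that close to Ifitm1 or Ifitm3.

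Other members of the family were hardly expressed. Ifitm5, a gene of bone-forming cells, lay between 0 and 0.658 FPKM, and Ifitm6, a gene best known from myeloid cells in mice, had no value above 0.344 FPKM. Ifitm7, on chromosome 16, reached at most 0.551 FPKM. Of 8 family members in the tables besides the 3, only Prrt1, a synaptic membrane protein with the same kind of domain, passed the filter. Its means were 3.73 FPKM in Cd69-/- term diff, 5.07 in wild type term diff, 4.57 in Cd69-/- stem-like and 5.32 in wild type stem-like, and it passed no test.

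Genes beside the cluster had smaller averaged genotype differences than the 1.33 to 2.05 of the IFITM genes. The IFITM genes were chosen for this difference, so nothing is read from the comparison. Within 100 kb of the outermost members, 14 other genes were listed and 7 passed the filter. With limma none of the 7 passed in any genotype comparison. Over all genes 0.194% passed in term diff, 0.153% in stem-like cells and 0.542% averaged over subsets. An unadjusted p under 0.05 in at least one of these comparisons was found for 4 of the 7. In each comparison alone, 15.1%, 7.26% and 12.4% of all genes had one, in the same order. The share of all genes with one in at least one of them was not computed, so nothing is read from the 4 of 7. The largest averaged differences were 0.4 ± 0.11 for Pkp3, a desmosomal plakophilin (limma adjusted p = 0.22), and 0.37 ± 0.08 for Ric8, a chaperone of G protein alpha subunits (limma adjusted p = 0.132). Pkp3 had 2.06 to 2.95 FPKM in Cd69-/- and 1.36 to 1.89 FPKM in wild type libraries. Ric8 had 6 to 6.81 FPKM in Cd69-/- and 4.09 to 5.36 FPKM in wild type libraries. Both genes, like the IFITM genes, had every Cd69-/- library above every wild type library. That held for 2 of the 7, beside 1.75% of all genes. Athl1, which lies closest to Ifitm2 among the genes kept, had 1.92 to 2.12 FPKM in Cd69-/- and 1.44 to 2.36 FPKM in wild type libraries. By subset, Sigirr, an inhibitory receptor of the interleukin-1 family, was lower in wild type term diff than in wild type stem-like cells (-0.61 ± 0.14, limma adjusted p = 0.0254). Sigirr no longer passed once wild type stem-like library 2 was left out (limma adjusted p = 0.12), nor without wild type term diff library 1 (limma adjusted p = 0.078) or library 2 (limma adjusted p = 0.121).

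**Figure D3:**
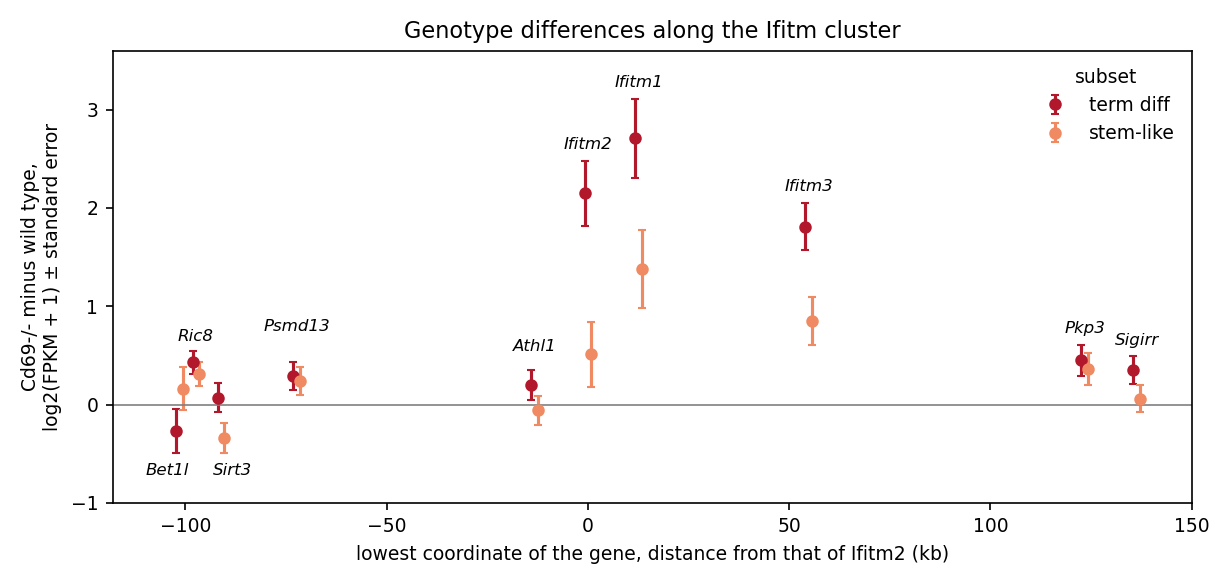
Cd69-/- minus wild type difference on the log2(FPKM + 1) scale ± standard error for the genes kept within 100 kb of the Ifitm cluster, by distance in kb from the lowest coordinate of Ifitm2, in term diff and in stem-like cells. The 3 IFITM genes, which were chosen for this difference, reach 1.81 to 2.71 in term diff. They lie above the 7 other genes, among which Pkp3 and Ric8 are highest.

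IFITM proteins are modified and partnered by other proteins, and 9 of 11 such genes passed the filter. Between subsets 4 of the 9 passed in Cd69-/- and 3 in wild type cells, against 9.45% and 13.1% of all genes. None passed by genotype with limma, where 1 of 9 in term diff and 0 of 9 in stem-like cells had an unadjusted p under 0.05, against 15.1% and 7.26% of all genes. Zdhhc20, an enzyme that attaches palmitate to IFITM3, averaged 8.4 FPKM in Cd69-/- term diff, 8.44 in wild type term diff, 8.29 in Cd69-/- stem-like and 8.03 in wild type stem-like. Zmpste24, a membrane protease that works with IFITM proteins against viruses, averaged 5.26, 4.34, 4.43 and 4.17 FPKM in the same groups. Nedd4, a ubiquitin ligase that marks IFITM3 for degradation, rose in term diff in Cd69-/- cells (1.27 ± 0.15, limma adjusted p = 0.00211) and in wild type cells (1.61 ± 0.15, limma adjusted p = 0.000564). Its means were 7.61 FPKM in Cd69-/- term diff against 2.59 FPKM in Cd69-/- stem-like, and 9.72 FPKM in wild type term diff against 2.48 FPKM in wild type stem-like. Cd81, a tetraspanin that binds IFITM1, fell in term diff in Cd69-/- cells (-1.38 ± 0.15, limma adjusted p = 0.00131) and in wild type cells (-2.22 ± 0.15, limma adjusted p = 0.000107). Calls of Cd9, another tetraspanin, and of Fyn, a kinase that phosphorylates IFITM3, were also made, but each ended when single libraries were left out, with limma adjusted p between 0.0515 and 0.17 for Cd9 and between 0.0596 and 0.128 for Fyn. Rescaling every library to an equal FPKM sum, which left 70 calls in Cd69-/- and 152 in wild type over all genes, ended the subset calls of Nedd4, Cd81, Sigirr and of Irf8, Jak2, Ifngr1, Slfn5 and Iigp1 below.

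Few genes of the interferon pathway upstream of the IFITM genes passed by genotype. Of 7 interferon genes in the tables only Ifng, the type II interferon, passed the filter, with means of 108 FPKM in Cd69-/- term diff, 73 in wild type term diff, 77.4 in Cd69-/- stem-like and 68.6 in wild type stem-like. Its genotype difference in term diff was 0.56 ± 0.16 (limma adjusted p = 0.205). Of 19 receptor and signalling genes kept, none passed by genotype with limma within a subset. Over all genes 0.153% passed in stem-like and 0.194% in term diff cells. Unadjusted p was under 0.05 in 3 of the 19 in each subset, against 7.26% and 15.1% of all genes. Averaged over subsets, Irf8, an interferon regulatory factor, was lower in Cd69-/- (-0.73 ± 0.09, limma adjusted p = 0.0145), the opposite direction to the IFITM genes. It was the only 1 of the 19 to pass there, against 0.542% of all genes. Irf8 ranged from 17.3 to 39 FPKM in Cd69-/- and from 32.6 to 58.2 FPKM in wild type libraries. Irf8 did not pass when wild type stem-like library 2 was left out (limma adjusted p = 0.053), nor without Cd69-/- stem-like library 1 (0.072) or 2 (0.0551), wild type term diff library 2 (0.0555) or Cd69-/- term diff library 2 (0.064).

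Between subsets, 2 of the 19 rose and 3 fell in Cd69-/- term diff, against 2 and 2 in wild type term diff. Over all genes 3.88% rose and 5.56% fell in Cd69-/-, and 7.24% rose and 5.83% fell in wild type. Irf8 rose in both (0.97 in Cd69-/-, limma adjusted p = 0.00268, and 0.73 in wild type, limma adjusted p = 0.0077). Jak2, a kinase of the interferon gamma receptor, fell in both (-1.12 in Cd69-/-, limma adjusted p = 0.00157, and -0.89 in wild type, limma adjusted p = 0.00332). Ifngr1, a chain of the interferon gamma receptor, rose in both (0.79 in Cd69-/-, limma adjusted p = 0.0445, and 1.37 in wild type, limma adjusted p = 0.0036). In Cd69-/- the Ifngr1 call ended without any 1 of the 4 Cd69-/- libraries or the 2 wild type term diff libraries, with limma adjusted p between 0.0563 and 0.195.

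The other interferon-stimulated genes were the closest comparison for the IFITM genes, and none of 72 kept passed by genotype in stem-like, in term diff or averaged over subsets with limma. Over all genes only 0.153%, 0.194% and 0.542% passed, in the same order, so little is read from that count. Unadjusted p was under 0.05 in 7, 11 and 17 of them, against 7.26%, 15.1% and 12.4% of all genes. Their median genotype difference was 0.05 in term diff and 0.18 in stem-like cells, beside -0.05 and 0.06 over all genes. Of the 72, 44 in term diff and 64 in stem-like cells were above 0, beside 42% and 62.5% of all genes. The antiviral ubiquitin-like protein Isg15 averaged 10.9 FPKM in Cd69-/- term diff and 10.1 in wild type term diff, and 5.57 in Cd69-/- stem-like and 5.02 in wild type stem-like. Mx1, a dynamin-like restriction factor, averaged 11.5 and 12.3 FPKM in term diff and 10.9 and 9.67 FPKM in stem-like, Cd69-/- before wild type in each pair. Bst2, which tethers budding virus and like the IFITM proteins sits in the membrane, averaged 9.64 FPKM in Cd69-/- term diff and 8.74 in wild type term diff.

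Among the 72, those nearest to the IFITM genes by value were 2 surface proteins of the Ly6 family and Ifi44, named after their values were seen. In term diff the difference of Ly6c2 was 1.18 ± 0.41 (limma adjusted p = 0.273) and that of Ly6a 1.09 ± 0.47 (limma adjusted p = 0.328). Without wild type term diff library 1, Ly6c2 passed in term diff (1.93 ± 0.23, limma adjusted p = 0.0305) and averaged over subsets (1.31 ± 0.15, limma adjusted p = 0.0123). Ifi44 had 0.85 ± 0.2 in stem-like cells (limma adjusted p = 0.347). At the other end Oasl1, a regulator of the interferon response, had -0.8 ± 0.28 in term diff (limma adjusted p = 0.273). Gbp2, Ifi47, Irf9, Parp9, Sp100 and Trim21 were the 6 of 72 (8.33%) in which every Cd69-/- library was above every wild type library, beside 1.75% of all genes. Their values were close to each other all the same, as with Ifi47, a GTPase induced by interferon gamma, at 9.89 to 12.4 FPKM in Cd69-/- and 7.34 to 9.04 FPKM in wild type.

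**Figure D4:**
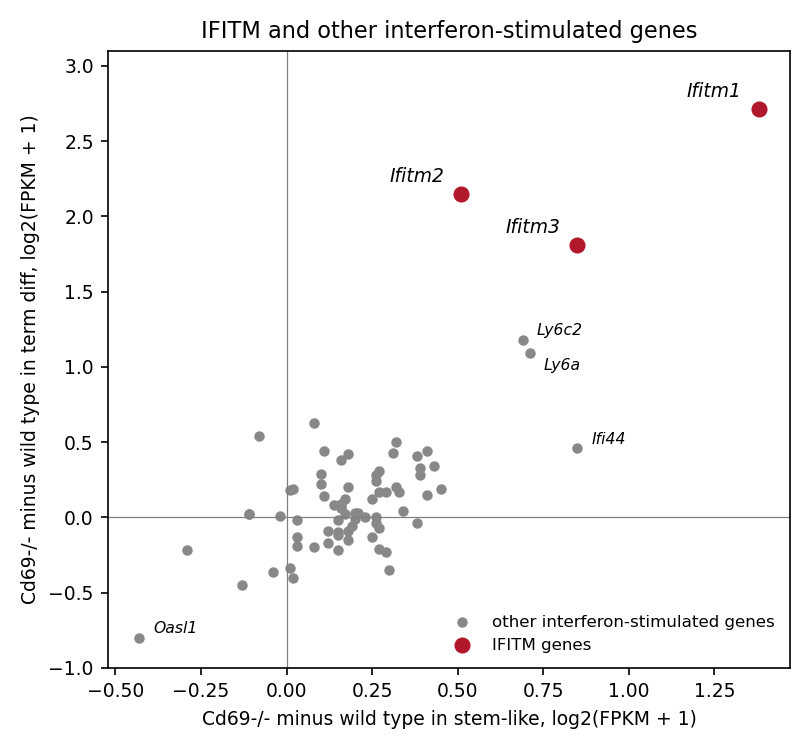
Cd69-/- minus wild type difference on the log2(FPKM + 1) scale in term diff (vertical axis) against stem-like cells (horizontal axis) for 72 other interferon-stimulated genes (grey) and the 3 IFITM genes (red). Most grey points lie within 0.5 of 0 on both axes, Ly6c2 and Ly6a stand between them and the IFITM genes, and the IFITM genes were chosen for this difference.

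By subset the other interferon-stimulated genes went both ways. In Cd69-/- term diff 1 of 72 rose and 3 fell, and in wild type term diff 6 rose and 3 fell, against 3.88% and 5.56% of all genes in Cd69-/- and 7.24% and 5.83% in wild type. Slfn5, a Schlafen protein, fell in both (-1.3 ± 0.13 in Cd69-/-, limma adjusted p = 0.00102, and -1.46 ± 0.13 in wild type, limma adjusted p = 0.000476). Other calls were less stable. In Cd69-/- the number of calls was 1 without Cd69-/- stem-like library 1 or Cd69-/- term diff library 1, and 2 without Cd69-/- term diff library 2 or either wild type stem-like library. In wild type it was 2 without wild type stem-like library 1, 3 without either wild type term diff library and 6 without wild type stem-like library 2. Iigp1, a GTPase that attacks vacuoles of parasites, fell by 1.22 in Cd69-/- (limma adjusted p = 0.0113) and by 1.25 in wild type (limma adjusted p = 0.00814). Its call ended without Cd69-/- stem-like library 1 (limma adjusted p = 0.0892), Cd69-/- term diff library 1 (0.0525) or 2 (0.0772), and in wild type without wild type term diff library 2 (0.0504).

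Values that moved together with the genotype are given here, and their part in the IFITM difference was not tested. All 8 CD8 T cell marker genes had a genotype difference above 0 in both subsets, with a median of 0.5 in term diff and 0.14 in stem-like cells. A difference above 0 was found in 42% of all genes in term diff and in 62.5% in stem-like cells. None of the 8 passed with limma, and unadjusted p was under 0.05 in 5 and 2 of them, against 15.1% and 7.26% of all genes. Cd8b1, a chain of the CD8 co-receptor, had 139 to 167 FPKM in Cd69-/- and 76.1 to 113 FPKM in wild type libraries. Of the 8 markers of the sorted subsets, 6 in stem-like and 4 in term diff cells had a genotype difference above 0. Their medians were 0.45 and 0.05. None passed within a subset, and unadjusted p was under 0.05 in 4 and 3 of them, against 7.26% and 15.1% of all genes. Averaged over subsets 1 of the 8 passed, against 0.542% of all genes, but not with a pseudocount of 5. Short genes also leaned up in Cd69-/- term diff. Among 408 coding genes whose longest transcript had at most 900 bases, as those of the 3 IFITM genes do, the median genotype difference was 0.33 in term diff, beside -0.05 over all coding genes, and 0.04 beside 0.06 in stem-like cells. Of these short genes, all 3 members included, 1, 2 and 3 had a term diff difference at least as large as Ifitm1, Ifitm2 and Ifitm3. Those counted in term diff were the IFITM genes themselves. In stem-like cells the counts were 2, 32 and 7. The members were chosen for this difference, so nothing is read from these counts.

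Markers of other cell types differed in level. All 7 neutrophil and all 7 B cell markers stayed under 1 FPKM in every library. Of 12 macrophage and monocyte markers 9 did so, and the summed FPKM of the 12 was 8.16 to 10 in Cd69-/- term diff, 8.58 to 10.9 in wild type term diff, 12.9 to 14.7 in Cd69-/- stem-like and 11.7 to 13.2 in wild type stem-like. Of 11 tumour and stroma markers 9 stayed under 1 FPKM in every library, all but Pecam1 and Igfbp7. The 11 markers summed to 11.4 to 11.8 FPKM in Cd69-/- term diff and 8.91 to 10.7 in wild type term diff. In stem-like libraries they summed to 28.5 to 32.2 FPKM in Cd69-/- and 27.8 to 35.4 FPKM in wild type. Most of that came from Pecam1, with means of 12.9 FPKM in Cd69-/- and 11.9 in wild type, and Igfbp7, with 16.4 and 18.4. In term diff cells these 2 went opposite ways, Pecam1 with 4.47 FPKM in Cd69-/- and 5.92 in wild type, and Igfbp7 with 6.23 and 2.83. The 4 NK cell markers, of which Klre1 and Klrk1 are also made by CD8+ T cells and were the 2 that passed the filter, summed to 87 to 95.7 FPKM in Cd69-/- term diff against 63.5 FPKM in both wild type term diff libraries. In term diff libraries dendritic cell markers summed to 1.71 to 2.43 FPKM in Cd69-/- and 1.36 to 3 in wild type. Markers of CD4 and regulatory T cells summed to 3.68 to 5.65 and 3.31 to 5.19 FPKM there, and erythroid markers to 1.64 to 2.54 and 1.01 to 1.34. In Cd69-/- stem-like libraries these sums were 1.94 to 2.3, 7.41 to 8.96 and 0.665 to 0.864 FPKM, in the same order. In wild type stem-like libraries they were 1.71 to 2.17, 7.37 to 8.93 and 0.729 to 0.93 FPKM. None of these lists had a marker at 0 in all libraries.

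The genes whose pattern over the 8 libraries was most like that of a member were sought by Pearson's r on the log2(FPKM + 1) scale among 4740 genes with a mean of at least 5 FPKM. For Ifitm1 these were Dbi (r = 0.97), an acyl-CoA-binding protein, Gmfg (0.96), an actin regulator, Flot1 (0.95), a membrane scaffold, the ribosomal protein gene Rps29 (0.95) and Klrd1 (0.95), which encodes the receptor chain CD94. For Ifitm3 they were Trim21 (0.95), an intracellular antibody receptor, Gmfg (0.93), Klrc2 (0.92), a partner of CD94, Ier3 (0.92) and Arpc5l (0.92). Gmfg was in both lists, with means of 37.4 FPKM in Cd69-/- term diff, 20 in wild type term diff, 28 in Cd69-/- stem-like and 21.2 in wild type stem-like. Klrc2 averaged 106 FPKM in Cd69-/- term diff and 40.9 in wild type term diff, and 88.3 in Cd69-/- stem-like and 55.4 in wild type stem-like. For Ifitm2 the nearest were 4921524J17Rik (0.94), Insl6 (0.94), Psmg4 (0.92), Fam165b (0.91) and BC021614 (0.9). Each list holds the 5 highest of 4740 values of r over 8 libraries, so high values come in part from the search itself. The members were also chosen for a higher level in Cd69-/-, which favours genes that share it.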

How the data were processed

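RNA was sequenced from 8 libraries (a stranded low-input kit for total RNA, read single-end over 76 cycles, per the labels' protocols). The authors deposited 1 gene table per library with FPKM and its confidence limits, per the file headers. Cufflinks 2.2.1, TopHat 1.3.2, Bowtie2 2.3.4 and bcl2fastq 2.20 with build mm10 stand in the submitters' processing notes. Which annotation, strand setting and total went into the FPKM is not given in the sources used here.

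Values were used as log2(FPKM + 1). Rows with a symbol at more than 1 locus (708) were kept apart and 3 genes with a status other than OK left out. The 9782 genes that reached 1 FPKM in 2 or more libraries were fitted with limma 3.58.1 in R 4.3.3 (4 group means, empirical Bayes with trend, 4 residual and 4.2 prior degrees of freedom), a fit tested on simulated data. P-values were 2-sided and adjusted over all these genes by the Benjamini-Hochberg method, with a threshold of 0.05. All 8 libraries shared 1 spread per gene. Implied fragments, the square of 2 times FPKM over the distance to its upper limit, are approximate and, like the deposited intervals, cover counting error only.

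The IFITM genes and all gene lists were chosen with earlier results of these data known, and the length of 900 bases after seeing the data. Genes named are the members, Cd69, list genes that passed or had the smallest p, genes within 100 kb, and the 5 most similar per member; others, such as Isg15, Mx1, Bst2, Zdhhc20, Ly6a and Sp100, were chosen after their values were seen. Not all genes the rule allows are named, and one is not reported here. Promoters are from RefSeq (GRCm38.p6) and transcripts from GENCODE M21. Alternatives were other pseudocounts, filters, scalings and fits, the replicate number as a block, and leaving out libraries.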

Additional observations from a re-analysis of the deposited data

How the results depend on the processing

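The 3 IFITM genes kept a positive genotype difference in both subsets under every alternative that gave a value. They were chosen for this difference, and each Cd69-/- library lay above each wild type library in all 3. Another pseudocount or a library left out could therefore not turn the sign, and nothing is read from its being kept. With a pseudocount of 0.1 the term diff differences were 4.648, 3.271 and 2.263 for Ifitm1, Ifitm2 and Ifitm3, and 3.351 for Ifitm1 in stem-like cells. With a pseudocount of 5 they were 1.191, 0.999 and 1.012 in term diff, and in stem-like cells 0.461 for Ifitm1 and 0.436 for Ifitm3. Scaling to an equal FPKM sum moved the median of all genes by -0.446 in stem-like and -0.844 in term diff cells. The differences then were 2.154, 1.552 and 0.915 in term diff, and in stem-like cells 0.454 for Ifitm3 and 0.076 for Ifitm2. Leaving out single libraries gave 0.793 to 1.971 for Ifitm1 and 0.302 to 0.708 for Ifitm2 in stem-like cells. A filter of 5 FPKM removed Ifitm1 and Ifitm2.

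Subset tests of the members lay close to the threshold. Ifitm2 passed in wild type with a pseudocount of 0.1 (-2.087, limma adjusted p = 0.0419) and with only the groups compared in the fit (-1.18, limma adjusted p = 0.0378). In Cd69-/- cells the untested value of Ifitm1 was 0.745 with a pseudocount of 5, and Ifitm3 passed with it (0.49, limma adjusted p = 0.0499) and with only the groups compared (0.75, limma adjusted p = 0.046). Leaving out single libraries gave 0.814 to 1.992 for Ifitm1, 0.021 to 0.915 for Ifitm2 and 0.514 to 0.987 for Ifitm3 in Cd69-/- cells. In wild type cells it gave -0.085 to 0.231 for Ifitm1, -1.531 to -0.83 for Ifitm2 and -0.501 to 0.074 for Ifitm3. Without both wild type libraries numbered 2, an alternative added after seeing the data, Ifitm1 was at -0.012 there. The cause of these shifts was not tested.

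Counts of all genes called moved more. Between subsets they were 545 in Cd69-/- and 752 in wild type with no filter, and 70 in Cd69-/- and 152 in wild type with an equal FPKM sum. Single libraries left out gave 287 to 900 in Cd69-/- and 620 to 1110 in wild type. Without both wild type libraries numbered 2 there were 362 in wild type. By genotype in stem-like cells the 15 calls became 5 with a pseudocount of 0.1, 4 with no filter, 9 with at least 5 FPKM, 54 with an equal FPKM sum, 35 with a robust fit, and 4 to 16 without single libraries. In term diff the 19 became 11 with no filter, 3 with at least 5 FPKM, 9 with quantile normalization, 61 with an equal FPKM sum, 78 with a robust fit, 51 with only the groups compared, and 3 to 23 without single libraries. Averaged over subsets the 53 became 13 with no filter, 34 with at least 5 FPKM, 102 with a robust fit, 29 without both wild type libraries numbered 2, and 18 to 65 without single libraries. The 3 interactions became 8 with a pseudocount of 5, 51 with an equal FPKM sum, 17 without both wild type libraries numbered 2, and 2 to 9 without single libraries.

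The labels do not say whether replicate numbers pair the libraries. Same-numbered deviations correlated between -0.3 and 0.15, and the numbers were not treated as pairs. With the number as a replicate block, the genotype calls numbered 8 in stem-like and 6 in term diff cells, and no subset test of Ifitm2 or Ifitm3 changed its call. With the numbers crossed in Cd69-/- term diff, 832 genes were called between the Cd69-/- subsets.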
